A study of Homo sapiens with 32 samples.

Results

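The aryl hydrocarbon receptor and CYP1 genes were taken as the 7 genes AHR, ARNT, AHRR, CYP1A1, CYP1A2, CYP1B1 and TIPARP, chosen by symbol from the 48804 genes counted by RNA-seq. AHR is a transcription factor of the basic helix-loop-helix PAS family that waits in the cytosol on HSP90 chaperones, enters the nucleus when a small molecule binds it, pairs there with ARNT and binds short xenobiotic response elements near its target genes. The CYP1 genes are its classic targets and encode cytochrome P450 enzymes that oxidise aromatic hydrocarbons, many drugs and estrogens. AHRR and TIPARP are also targets, and their products restrain the receptor.

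The libraries were made from MDA-MB-468 cells, an established human basal breast carcinoma line without estrogen receptor alpha, progesterone receptor or HER2 amplification. Cultures received PBS (control), the ionophore salinomycin at 0.5 μM (Sal), the tyrosine kinase inhibitor dasatinib at 15 μM (Das) or both drugs together (S + D), for 24 h or 72 h. Each of the 8 groups had 4 libraries, described as biological replicates, of which 3 carry the numbers 1 to 3 and 1 carries no number (the unnumbered library). All groups came from 1 cell line, and the controls were PBS cultures of the same time point.

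Total counts ran from 25692561 to 42769687 per library. Among markers of the line, EGFR was at 4807 ± 91.6 CPM (read counts scaled to a common library size after TMM normalisation) in the control at 24 h (SD, n = 4). The deleted genes RB1 and SMAD4 were at 0.753 ± 0.0548 and 0.298 ± 0.145 CPM there. Over all libraries the 6 markers listed as high (EPCAM, KRT18, KRT8, KRT5, KRT16 and EGFR) summed to 3931 to 8640 CPM. The 5 listed as low (RB1, SMAD4, ESR1, PGR and ERBB2) summed to 68.1 to 201.5 CPM, so not all of them were near 0. Summed leukocyte markers stayed between 0 and 0.233 CPM, the 2 endothelial markers with a row between 0.0350 and 1.28 CPM, and hepatocyte markers (ALB, APOA1, CYP2E1) between 0.168 and 0.808 CPM. Of the 3 fibroblast markers, COL3A1 was at or near 0 whereas COL1A1 went from 25.3 ± 8.21 CPM in the control at 24 h to 87.1 ± 22.7 CPM with S + D at 72 h, and the part of such cells in the results was not tested. The unnumbered libraries deviated together from their groups, with correlations across genes of 0.61 to 0.69 between groups at 24 h and 0.53 to 0.63 at 72 h. Hence values from the numbered libraries alone are given wherever a call turned on them. Differences were tested with edgeR (quasi-likelihood test, p-values adjusted over all genes), and a gene is said to have risen or fallen where its adjusted p was below 0.01.

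CYP1A1 and CYP1A2 are neighbours on chromosome 15 on opposite strands, with 23309 bases between their starts (GRCh37). CYP1A1 (ENSG00000140465) spans chr15:75011883-75017877 on the minus strand and CYP1A2 (ENSG00000140505) chr15:75041186-75048948 on the plus strand. CYP1B1 (ENSG00000138061) lies at chr2:38294116-38337044 on the minus strand, TIPARP (ENSG00000163659) at chr3:156391024-156424559 on the plus strand. AHR (ENSG00000106546) lies at chr7:16955983-17385776 on the plus strand, ARNT (ENSG00000143437) at chr1:150782189-150849184 on the minus strand and AHRR (ENSG00000063438) at chr5:321829-438406 on the plus strand. Exons of AHRR shared 58.7% of their bases with the readthrough gene PDCD6-AHRR, and those of AHR 35.2% with other annotated genes, while CYP1A1, CYP1A2, ARNT and TIPARP shared none. The overlapping same-strand genes PDCD6-AHRR and ENSG00000283321 were not analysed here, so AHRR and AHR counts may hold reads of those transcripts. CYP1B1-AS1, antisense to CYP1B1, had 3 to 48 counts per library beside 15011 to 70283 counts of CYP1B1.

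The 250 bases before the start were read for 6 of the 7 genes from RefSeq promoter sequences placed on GRCh37, and CYP1B1 had no entry. The core of the response element, GCGTG on either strand (CACGC when read on the opposite strand), was found in the nearest 250 bases of CYP1A1 (1 match), in 1 of 3 TIPARP promoters (2 matches) and in both AHRR promoters (1 and 2 matches), and not in those of CYP1A2, AHR or ARNT. The same letters occur in 32.2% of 35116 promoters of this length, and the longer form TNGCGTG, each match of which also counts as a GCGTG match, in 4.5%. The following sequences are shown because CYP1A1 and CYP1A2 lie side by side yet differed widely in level (15.9 against 0.140 CPM per kilobase of exon in the control at 24 h), and because AHRR holds the only TNGCGTG match among the 250-base promoters read. Sequences run 5′ to 3′ on the strand of the gene, and capitals mark GCGTG or CACGC.
CYP1A1, 1200 to 901 bases before the start (GRCh37 chr15:75018770-75019069, minus strand): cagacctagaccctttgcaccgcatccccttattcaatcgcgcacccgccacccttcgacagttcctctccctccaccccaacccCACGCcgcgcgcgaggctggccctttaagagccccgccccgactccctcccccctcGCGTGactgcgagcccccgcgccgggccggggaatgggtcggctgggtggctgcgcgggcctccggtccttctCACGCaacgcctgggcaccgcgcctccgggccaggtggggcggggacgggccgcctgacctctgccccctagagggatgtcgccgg
CYP1A1, nearest 250 bases (GRCh37 chr15:75017870-75018119, minus strand): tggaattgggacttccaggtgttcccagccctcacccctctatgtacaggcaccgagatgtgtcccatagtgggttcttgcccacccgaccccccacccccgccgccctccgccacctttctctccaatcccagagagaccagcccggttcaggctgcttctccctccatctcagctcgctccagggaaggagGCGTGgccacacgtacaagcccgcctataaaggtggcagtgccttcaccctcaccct
CYP1A2, nearest 250 bases (GRCh37 chr15:75040936-75041185, plus strand): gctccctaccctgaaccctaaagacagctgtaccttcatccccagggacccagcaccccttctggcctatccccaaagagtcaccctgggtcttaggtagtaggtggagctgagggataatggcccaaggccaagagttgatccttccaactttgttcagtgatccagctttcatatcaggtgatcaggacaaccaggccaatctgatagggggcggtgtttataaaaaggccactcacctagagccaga
AHRR, first promoter, nearest 250 bases (GRCh37 chr5:321579-321828, plus strand): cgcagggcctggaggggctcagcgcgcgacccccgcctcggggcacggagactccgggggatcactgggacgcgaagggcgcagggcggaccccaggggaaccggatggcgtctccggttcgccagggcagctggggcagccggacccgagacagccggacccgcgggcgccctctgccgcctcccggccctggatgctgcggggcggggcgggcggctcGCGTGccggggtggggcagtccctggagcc

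The CYP1A1 window from 1200 to 901 bases before the start held 3 GCGTG and 2 TNGCGTG matches, the most of 5 consecutive windows of 300 bases. At least as many TNGCGTG matches in 1 of 5 such windows were found for 1.1% of 19843 genes, and at least as many GCGTG matches for 11.8%. Matches beyond the nearest 250 bases are not given for CYP1A2, so the windows do not compare CYP1A1 with CYP1A2. A match describes letters only.

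CYP1A1, the P450 most strongly tied to AHR, was about an order of magnitude higher with Das, alone or in S + D, and Sal alone left it close to the control at 24 h. At 24 h CYP1A1 was at 42.3, 41.4, 40.7 and 89.3 CPM in the control libraries (replicates 1 to 3 and then the unnumbered library, the order kept throughout) and at 51.5, 48.4, 48.7 and 85.7 CPM with Sal. It was at 518, 486, 495 and 873 CPM with Das and at 554, 562, 563 and 502 CPM with S + D. Every library with Das lay above every library without it, while the control and Sal groups overlapped. CYP1A1 rose with Das by 3.49 on the log2 scale (SE 0.28, 11.3-fold, adjusted p = 4.95e-07) and with S + D by 3.39 (SE 0.28, adjusted p = 1.49e-07). With Sal the log2 difference was 0.12 (95% interval -0.43 to 0.67), which did not pass. Among the numbered libraries alone that small Sal difference passed the test (0.27, adjusted p = 0.000244). RNA came from whole cultures, so a higher level per cell and a larger share of cells carrying the transcript cannot be told apart.

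At 72 h CYP1A1 was again far higher with Das than in the control. It was at 18.5, 19.7, 19.6 and 47.0 CPM in the control, 54.8, 51.3, 44.8 and 97.5 CPM with Sal, 425, 429, 175 and 780 CPM with Das and 296, 308, 313 and 372 CPM with S + D. The Das libraries spread the most, with replicate 3 lowest and the unnumbered library highest, but all of them exceeded every control and Sal library. The log2 rise was 4.10 with Das (SE 0.41, 17.2-fold, adjusted p = 2.21e-06) and 3.60 with S + D (SE 0.40, 12.2-fold, adjusted p = 6.52e-07). With Sal CYP1A1 rose by 1.23 (SE 0.37, adjusted p = 0.00785), which was not past the threshold without any one of control replicates 1, 2 or 3, Sal replicate 1 or the unnumbered Sal library (adjusted p of 0.0121 to 0.0362), nor by DESeq2 (adjusted p = 0.0105). In the numbered libraries alone the Sal rise was 1.36 (adjusted p = 0.000218). The unnumbered library was the highest of its group for CYP1A1 in 7 of 8 groups, by up to 2.44 times the mean of the numbered libraries. Within the unnumbered libraries CYP1A1 was 9.79-fold higher with Das than with PBS at 24 h and 16.6-fold at 72 h. With S + D these folds were smaller, 5.62-fold at 24 h and 7.91-fold at 72 h, where the numbered libraries gave 13.6-fold and 15.7-fold. In the numbered libraries alone the log2 rise was 3.62 with Das and 3.77 with S + D at 24 h, and 4.14 and 3.97 at 72 h.

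**Figure D1:**
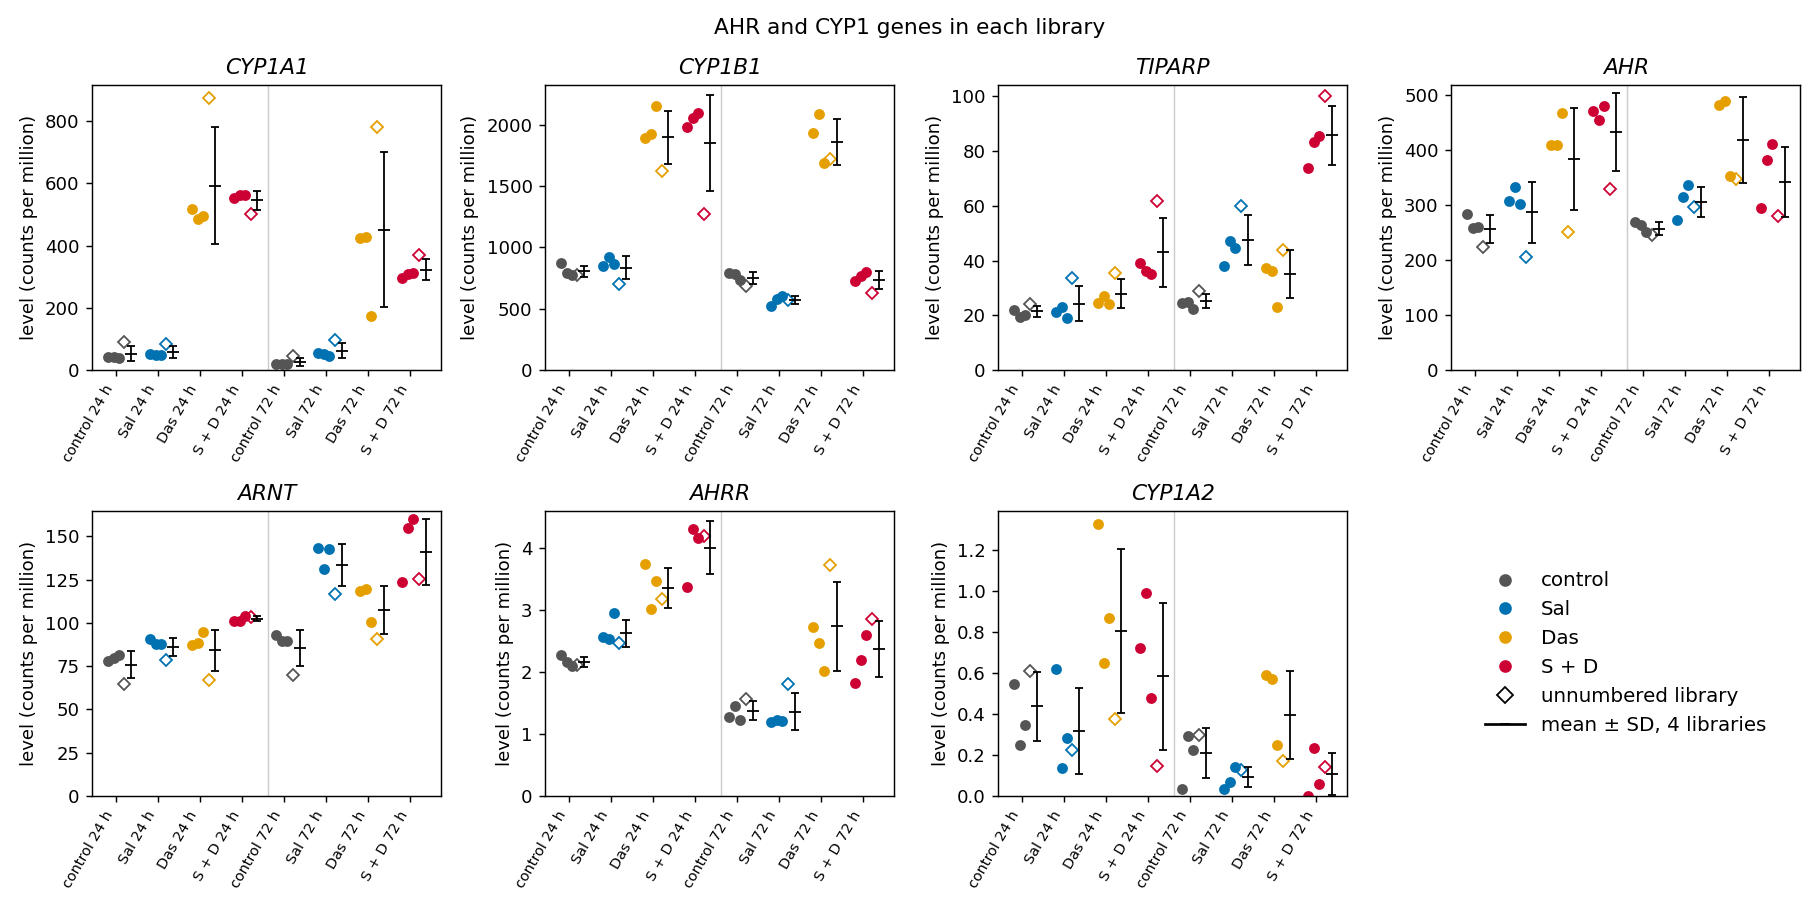
Level of each of the 7 genes in all 32 libraries (vertical axes, CPM from 0, different for each gene) by treatment and time. Filled circles are numbered libraries, open diamonds the unnumbered library, and black bars the mean ± SD of 4 libraries. CYP1A1 is high in every Das and S + D library, CYP1B1 is raised by S + D at 24 h (mean 1848 CPM) but not at 72 h (732 CPM), and TIPARP is highest with S + D at 72 h.

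CYP1B1, the P450 that hydroxylates estradiol and is expressed outside the liver, was already abundant in the control. Per kilobase of exon its mean level in the control at 24 h was 133.6 CPM per kb against 15.9 for CYP1A1, and with Das at 24 h 314.8 against 176.5. CYP1B1 stood at 874, 792, 777 and 776 CPM in the control at 24 h, at 848, 921, 865 and 703 CPM with Sal, at 1889, 1920, 2153 and 1623 CPM with Das and at 1982, 2052, 2092 and 1268 CPM with S + D. The Das and S + D libraries lay above all others, the unnumbered S + D library being the lowest of the raised ones. CYP1B1 rose at 24 h by 1.26 on the log2 scale with Das (SE 0.14, 2.39-fold, adjusted p = 1.24e-05) and by 1.23 with S + D (SE 0.14, adjusted p = 4.29e-06), and the Sal difference was 0.04 (95% interval -0.26 to 0.34, adjusted p = 0.891). In the numbered libraries alone the rises were 1.32 and 1.34.

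At 72 h CYP1B1 remained high with Das alone but not with S + D. The levels were 790, 782, 735 and 688 CPM in the control, 526, 582, 603 and 574 CPM with Sal, 1928, 2089, 1687 and 1722 CPM with Das and 728, 769, 799 and 632 CPM with S + D. All 4 S + D libraries lay among or close to the controls and below every Das library, and all 4 Sal libraries lay below every control. CYP1B1 rose by 1.30 with Das (SE 0.11, adjusted p = 1.87e-07) and fell by 0.41 with Sal (SE 0.10, adjusted p = 0.00235, 0.0166 without control replicate 2 and 0.0148 if unfiltered). With S + D it differed from the control by -0.05 (95% interval -0.27 to 0.17, adjusted p = 0.689). In the numbered libraries alone the differences were 1.30 with Das, -0.45 with Sal and -0.03 with S + D.

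TIPARP, a mono-ADP-ribosyltransferase that marks AHR for loss, had its highest mean with S + D at both times. At 24 h it was at 21.8, 19.5, 20.3 and 24.2 CPM in the control, 21.2, 23.0, 19.2 and 33.8 CPM with Sal, 24.6, 27.1, 24.0 and 35.5 CPM with Das and 39.3, 36.2, 35.1 and 61.8 CPM with S + D. S + D lay above every control library, with the unnumbered library highest in each group. TIPARP rose with S + D by 1.04 on the log2 scale (SE 0.20, adjusted p = 0.000461). The log2 differences with Sal (0.17, adjusted p = 0.646) and Das (0.40, adjusted p = 0.164) did not pass, and with the numbered libraries alone Das passed at 0.34 (adjusted p = 0.00143).

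At 72 h TIPARP was at 24.5, 24.9, 22.5 and 28.8 CPM in the control, 37.9, 47.3, 44.7 and 59.9 CPM with Sal, 37.3, 36.3, 23.1 and 43.7 CPM with Das and 73.8, 83.4, 85.6 and 100 CPM with S + D. The S + D libraries lay above all others, and the Das replicate 3 library, also lowest for CYP1A1, lay within the control range. TIPARP rose with Sal by 0.90 (SE 0.17, adjusted p = 0.000222) and with S + D by 1.75 (SE 0.18, 3.37-fold, adjusted p = 2.32e-07). With Das the difference was 0.47 (SE 0.17, adjusted p = 0.0436), and 0.65 (adjusted p = 0.00183) without Das replicate 3 and 0.00618 as the adjusted p with a term for the unnumbered libraries.

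AHR, the receptor itself, passed the test with S + D at 24 h and with Das at 72 h. At 24 h it was at 285, 259, 261 and 223 CPM in the control, 307, 334, 302 and 206 CPM with Sal, 409, 410, 468 and 252 CPM with Das and 471, 455, 480 and 329 CPM with S + D. The numbered Das libraries lay above all controls, whereas the unnumbered Das library lay within the control range. With Sal the AHR difference was 0.15 (adjusted p = 0.659), and in the numbered libraries alone it passed at 0.24 (adjusted p = 0.003). AHR rose with S + D by 0.79 (SE 0.19, adjusted p = 0.00263, and 0.0112 without the unnumbered control library). With Das the difference was 0.60 (SE 0.19, adjusted p = 0.0273), and it passed among the numbered libraries (0.71, adjusted p = 9.70e-09), without the unnumbered Das library alone (0.77, adjusted p = 0.00203) and with a term for the unnumbered libraries (0.57, adjusted p = 9.35e-06). At 72 h AHR was at 270, 265, 251 and 245 CPM in the control, 274, 315, 338 and 296 CPM with Sal, 483, 491, 353 and 349 CPM with Das and 295, 382, 412 and 281 CPM with S + D. All treated libraries at 72 h lay above every control. AHR rose with Das by 0.69 (SE 0.14, adjusted p = 0.00136), and neither S + D (0.39, adjusted p = 0.0211, and 0.0052 without the unnumbered S + D library, 0.00853 with a term for the unnumbered libraries) nor Sal (0.23, adjusted p = 0.166) passed.

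ARNT, the obligate partner of AHR and of the hypoxia factors, rose with S + D at both times and with Sal at 72 h. With S + D at 24 h it was at 101, 101, 104 and 104 CPM against 77.8, 79.6, 81.4 and 64.8 CPM in the control, without overlap, and rose by 0.47 (SE 0.10, adjusted p = 0.00174). Means with Sal (86.0 ± 5.29 CPM) and Das (84.3 ± 11.8 CPM) at 24 h did not pass (adjusted p = 0.312 and 0.266). In the numbered libraries alone ARNT passed with Das (0.21, adjusted p = 0.00127). At 72 h ARNT was at 92.8, 89.5, 89.6 and 69.9 CPM in the control, 143, 131, 143 and 117 CPM with Sal, 119, 119, 101 and 90.9 CPM with Das and 124, 155, 160 and 125 CPM with S + D. ARNT rose with Sal by 0.63 (SE 0.13, adjusted p = 0.000391) and with S + D by 0.70 (SE 0.13, adjusted p = 0.000122), every library of both lying above the controls, and the Das difference was 0.32 (adjusted p = 0.0609, and 0.00734 with a term for the unnumbered libraries).

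AHRR, which competes with AHR for ARNT, was counted in few reads, 34 to 152 per library, so its values are less precise. At 24 h it was at 2.27, 2.17, 2.10 and 2.12 CPM in the control, 2.56, 2.53, 2.95 and 2.47 CPM with Sal, 3.75, 3.02, 3.47 and 3.19 CPM with Das and 3.38, 4.31, 4.16 and 4.19 CPM with S + D. The 4 control libraries lay below all treated libraries. AHRR rose by 0.65 with Das (SE 0.13, adjusted p = 0.00134, and 0.0113 if unfiltered) and by 0.92 with S + D (SE 0.13, adjusted p = 2.26e-05). At 72 h it was at 1.27, 1.46, 1.22 and 1.56 CPM in the control, 1.19, 1.23, 1.20 and 1.80 CPM with Sal, 2.74, 2.47, 2.02 and 3.72 CPM with Das and 1.83, 2.20, 2.60 and 2.86 CPM with S + D. The Das and S + D groups did not overlap the controls, and the Sal group did. AHRR rose by 0.98 with Das (SE 0.23, adjusted p = 0.00318) and by 0.76 with S + D (SE 0.23, adjusted p = 0.00668). Without control replicate 1 or 3 the Das call was lost (adjusted p = 0.0117 and 0.0134), and the S + D call was lost without either of these (0.0209 and 0.0225) or without S + D replicate 2, 3 or the unnumbered library (0.0108, 0.0196 and 0.0167). The Das call was also lost when only the 2 groups were fitted (0.0108), and the S + D call when unfiltered (0.0114).

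CYP1A2, the liver form of the family, was barely detected, with 0 to 46 counts per library. It reached 46, 21, 23 and 16 counts with Das at 24 h against 18, 9, 11 and 26 in the control, and the groups overlapped. The log2 difference was 0.88 with Das (95% interval -0.22 to 1.98, adjusted p = 0.252), 0.44 with S + D (-0.69 to 1.56, adjusted p = 0.532) and -0.47 with Sal (-1.66 to 0.73, adjusted p = 0.656). A change of the size seen for CYP1B1 could thus not be resolved with all 4 libraries. In the numbered libraries alone the Das difference was 1.37 (adjusted p = 0.0109), which did not pass. Numbered Das libraries (0.647 to 1.33 CPM) lay above the numbered controls (0.247 to 0.545 CPM). The unnumbered libraries went the other way, at 0.378 CPM with Das against 0.611 CPM in the control. At 72 h CYP1A2 did not pass the filter on low counts. The control libraries had 1, 11, 8 and 11 counts, the Sal libraries 1, 2, 4 and 5, the Das libraries 19, 16, 8 and 7, and the S + D libraries 0, 9, 2 and 5, and each treated group overlapped the control. The 0 of S + D replicate 1 allows a level of up to 0.096 CPM (3 counts, counting error only). Mean levels were 0.211 ± 0.123 CPM in the control, 0.0926 ± 0.0503 in Sal, 0.396 ± 0.217 in Das and 0.109 ± 0.102 in S + D cultures, and two-sided exact permutation tests of 4 against 4 libraries gave p = 0.171, 0.257 and 0.257, where the smallest possible p is 0.0286. The hepatocyte markers named above summed to at most 0.808 CPM in any library.

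Of the 7 genes, 0 passed adjusted p < 0.01 with Sal at 24 h by edgeR (0 at an unadjusted p under 0.05 and 0 by DESeq2), where 6.78% of all 16357 genes tested did. With Das at 24 h 3 of 7 rose, beside 13.9% of all genes called and 6.99% called higher. With S + D 6 of 7 rose, beside 33.6% called and 17.1% called higher. At 72 h 6 of the 7 genes were tested. With Sal 3 rose and CYP1B1 fell, where 53.2% of 16682 genes were called (26.3% higher and 26.8% lower). With Das 4 rose (19.9% called, 10.5% higher) and with S + D 4 rose (54.9% called, 27% higher). The median log2 difference of the tested members was 0.65 with Das and 0.92 with S + D at 24 h, beside 0.02 and 0.04 over all genes, and 0.84 and 0.73 at 72 h, beside 0.02 and 0.01. With an added log2 limit of 1.5, CYP1A1 alone passed with Das at both times and with S + D at 24 h, and CYP1A1 and TIPARP passed with S + D at 72 h. Of all genes 2.49% and 5.02% passed both limits with Das at 24 h and 72 h, and 6.06% and 20.2% with S + D. The 3 treatments of a time point share their control libraries.

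**Figure D2:**
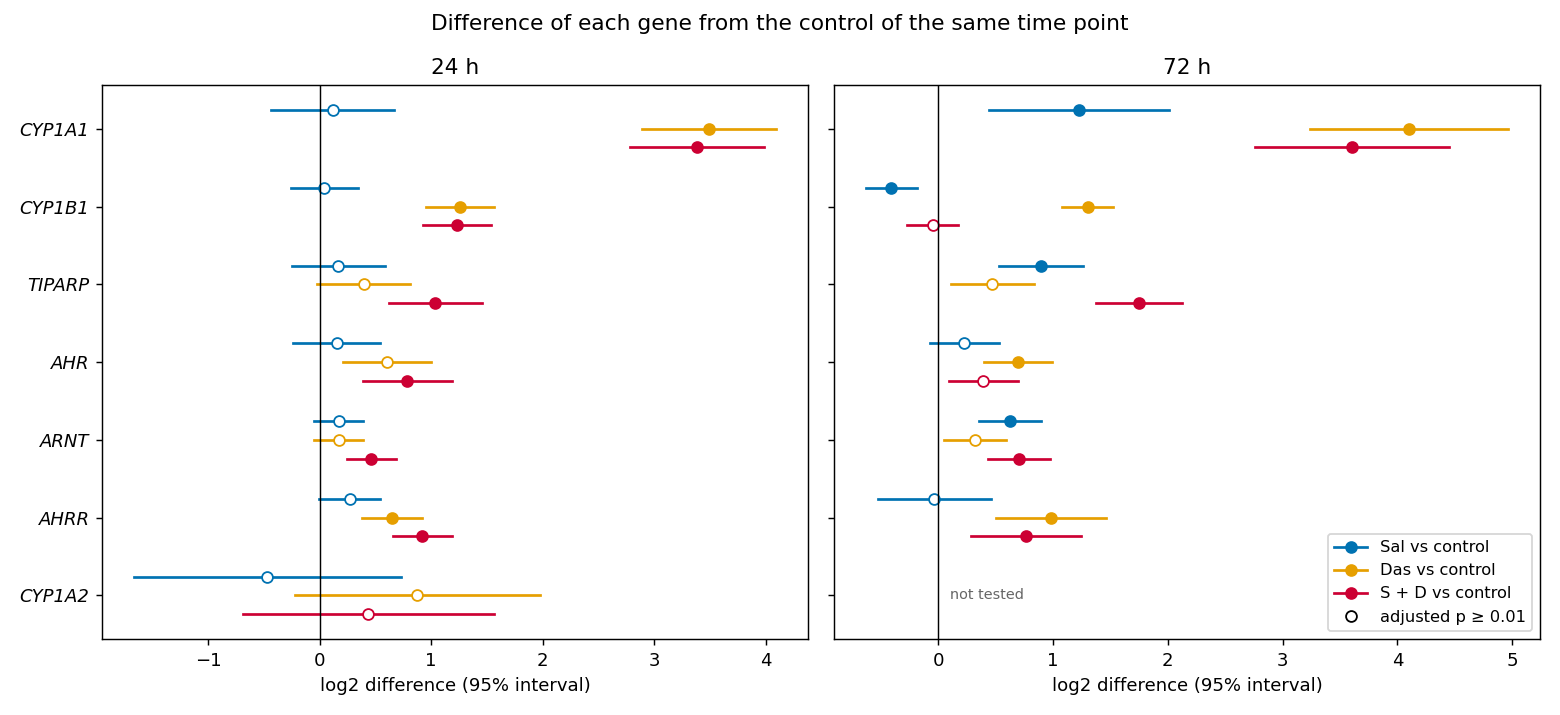
Log2 difference of each gene from the control of the same time point (horizontal axis) with its 95% interval, for Sal, Das and S + D at 24 h and 72 h. Filled circles passed adjusted p < 0.01, open circles did not, and CYP1A2 was not tested at 72 h. CYP1A1 lies near 3 to 4 with Das and S + D at both times, and CYP1B1 with S + D moves from 1.23 at 24 h to -0.05 at 72 h.

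The comparisons of S + D with each single drug asked what the second drug added. Against Sal at 24 h, adding Das went with higher levels of 4 of 7 genes (12.9% of all genes were called, 5.83% higher): CYP1A1 by 3.27 (SE 0.28, adjusted p = 8.73e-07), CYP1B1 by 1.19 (SE 0.14, adjusted p = 2.39e-05), TIPARP by 0.87 (SE 0.20, adjusted p = 0.00436) and AHRR by 0.65 (SE 0.13, adjusted p = 0.00139). TIPARP lost this call without Sal replicate 1, 2 or 3 or the unnumbered S + D library (adjusted p of 0.0115 to 0.0252), and AHRR and TIPARP lost it when the 2 groups were fitted alone (0.0232 and 0.0368). AHRR also lost it when no genes were filtered (0.0131) or all 32 libraries were fitted together (0.0103). ARNT differed by 0.29 (adjusted p = 0.053) and passed among the numbered libraries (0.20, adjusted p = 0.00152). AHR differed by 0.64 (adjusted p = 0.0214) and passed among the numbered libraries (0.58, adjusted p = 1.42e-07) and without the unnumbered S + D library (0.75, adjusted p = 0.00805). At 72 h 2 of 6 genes were higher in S + D than with Sal (3.01% of all genes called, 1.42% higher), CYP1A1 by 2.38 (SE 0.38, adjusted p = 0.000931) and TIPARP by 0.85 (SE 0.17, adjusted p = 0.0054). TIPARP passed in only 2 of the 8 fits that left out 1 library of the compared groups, those without the unnumbered Sal library (adjusted p = 0.00245) or without S + D replicate 1, and the other 6, without Sal replicate 1, 2 or 3, S + D replicate 2 or 3 or the unnumbered S + D library, gave 0.0138 to 0.0227. CYP1B1 differed by 0.36 (95% interval 0.14 to 0.58, adjusted p = 0.0409, and 0.00731 by DESeq2). AHRR differed by 0.80 (SE 0.23, adjusted p = 0.038) and passed with a term for the unnumbered libraries (0.81, adjusted p = 0.00342), with the replicate block (0.00703) and with all 32 libraries in one model (0.00324).

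Against Das at 24 h, 0 of 7 genes passed by edgeR in S + D (8.49% of all genes called, 3 members at an unadjusted p under 0.05, 0 by DESeq2). The 95% interval of the log2 difference was -0.65 to 0.44 for CYP1A1 and -0.32 to 0.28 for CYP1B1. TIPARP was 0.64 higher (adjusted p = 0.0329) and passed among the numbered libraries (0.52, adjusted p = 2.07e-05), as did ARNT (0.16, adjusted p = 0.00983). At 72 h 2 of 6 genes passed in the same comparison, near the share over all genes. CYP1B1 was lower in S + D than with Das, falling by 1.35 on the log2 scale (SE 0.11, adjusted p = 1.02e-07), and TIPARP was higher by 1.28 (SE 0.17, adjusted p = 2.11e-05), where 32.1% of all genes were called (14.3% higher and 17.7% lower). The 2 groups did not overlap for either gene. CYP1A1 differed by -0.50 with a 95% interval from -1.26 to 0.27 (adjusted p = 0.277), and ARNT by 0.38 (adjusted p = 0.0214), which passed with a term for the unnumbered libraries (0.39, adjusted p = 0.00152), with the replicate block (0.00302) and with all 32 libraries in one model (0.00615).

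The departure of S + D from the sum of the log2 changes of Sal and Das was tested with an interaction term. At 24 h 0 of 7 members passed by edgeR (0.0306% of all genes called, 0 members at an unadjusted p under 0.05, 0 by DESeq2), and TIPARP passed among the numbered libraries only (0.47, adjusted p = 0.00856). At 72 h CYP1B1 passed, falling by 0.95 below the sum (SE 0.15, adjusted p = 0.000574, 7.52% of all genes called, 4.09% lower), and it passed in all 16 fits that left out 1 library (adjusted p up to 0.00208). CYP1A1 lay 1.72 below the sum (SE 0.52, adjusted p = 0.0274), which did not pass. It passed in 5 of 7 alternative fits, among them the numbered libraries (-1.54, adjusted p = 0.00539) and the term for the unnumbered libraries (-1.65, adjusted p = 0.000841). Of the 16 fits that left out 1 library it passed in 2, without Das replicate 3 (-1.99, adjusted p = 0.00295) and without the unnumbered control library (-2.17, adjusted p = 0.00637). The terms for the other 4 tested genes ranged from -0.53 for AHR (adjusted p = 0.0723) to 0.38 for TIPARP (adjusted p = 0.295).

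**Figure D3:**
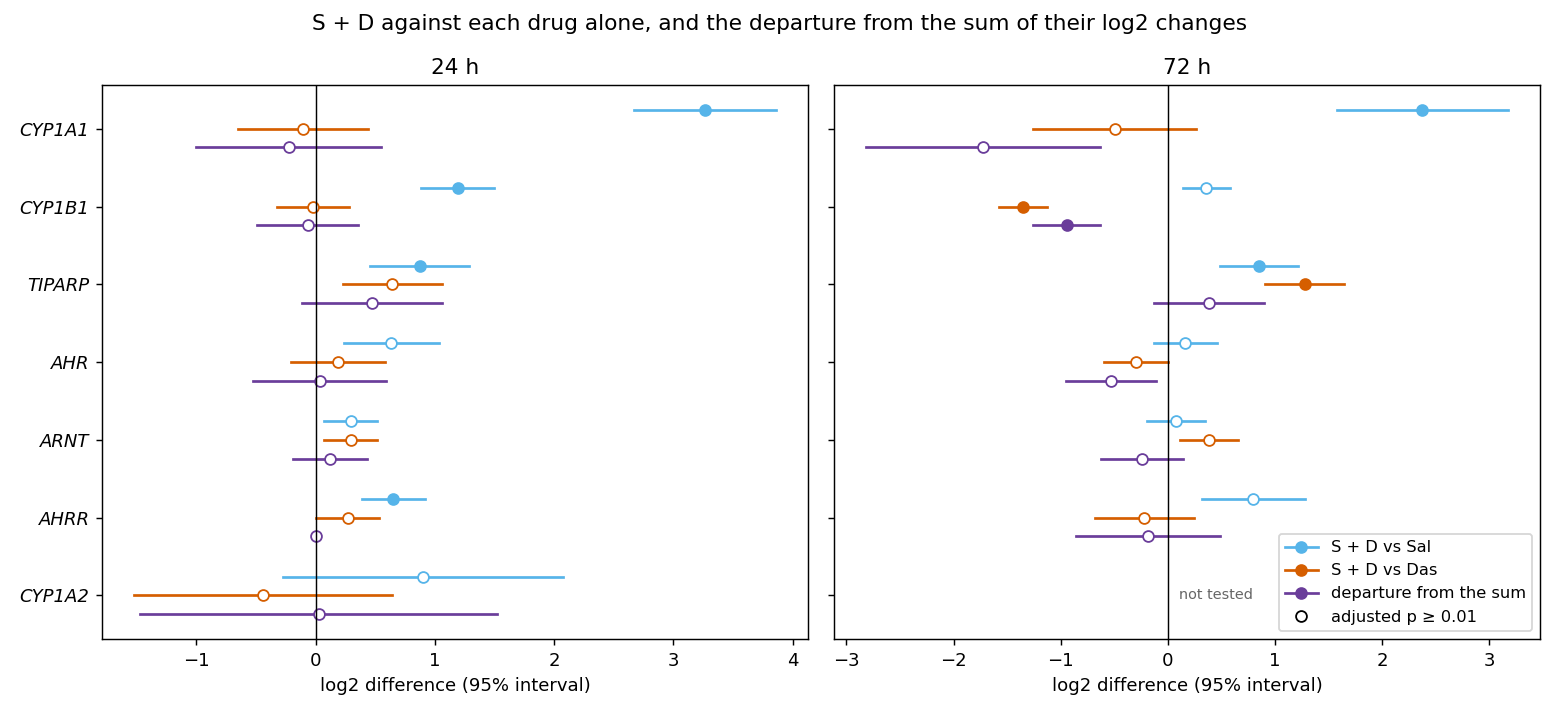
Log2 difference of S + D from Sal, of S + D from Das, and of S + D from the sum of both single-drug changes (horizontal axis, 95% intervals) for each gene at 24 h and 72 h. Filled circles passed adjusted p < 0.01, and AHRR at 24 h has no interval for the sum because its term was 0. At 72 h CYP1B1 is 1.35 lower and TIPARP 1.28 higher in S + D than with Das.

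Whether a response changed with time was tested over all 32 libraries. The S + D response of CYP1B1 was lower at 72 h than at 24 h, falling by 1.23 on the log2 scale (SE 0.17, adjusted p = 6.87e-06), and it was the 1 member of 7 called, where 16.3% of 17227 genes were (10.1% lower). Its Das response differed between the times by 0.07 (95% interval -0.28 to 0.42, adjusted p = 0.906). TIPARP had a larger response at 72 h than at 24 h to Sal (0.73, adjusted p = 0.0376) and to S + D (0.76, adjusted p = 0.037) by point estimates that did not pass. The Sal difference passed without the unnumbered Sal library of 24 h (0.94, adjusted p = 0.00553). The S + D difference passed without the unnumbered S + D library of 24 h (0.97, adjusted p = 0.00449). In the numbered libraries alone 4 members passed for the Sal response, namely TIPARP (0.79, adjusted p = 0.000978), CYP1A1 (1.11, adjusted p = 0.00144), ARNT (0.44, adjusted p = 0.00317) and CYP1B1 (-0.56, adjusted p = 0.000302). TIPARP joined CYP1B1 for the S + D response (0.90, adjusted p = 0.00034). Shares of all genes called in the numbered libraries alone are not given, so these counts have no share beside them. No member passed by edgeR for the Sal response (21.9% of all genes called, 4 members at an unadjusted p under 0.05, 0 by DESeq2) or the Das response (0.226% called, 0 members at an unadjusted p under 0.05, 0 by DESeq2). Between the controls of 72 h and 24 h 0 of 7 passed by edgeR (2.76% called, 2 at an unadjusted p under 0.05, 0 by DESeq2), with CYP1A1 at -1.03 (adjusted p = 0.0675) and AHRR at -0.65 (adjusted p = 0.023). Among the numbered libraries both passed (CYP1A1 -1.11, adjusted p = 0.000257, and AHRR -0.73, adjusted p = 0.00345), and CYP1A1 also passed without the unnumbered 72 h control (-1.48, adjusted p = 0.00855).

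Placed in order of their means, the groups gave each gene its own sequence. For CYP1A1 the 4 groups with Das (593, 545, 452 and 322 CPM for Das 24 h, S + D 24 h, Das 72 h and S + D 72 h) overlapped in turn, and the next group, Sal 72 h at 62.1 CPM, did not overlap S + D 72 h. For CYP1B1 the 3 highest groups were Das 24 h, Das 72 h and S + D 24 h at 1896, 1857 and 1848 CPM, whose ranges overlapped, and the lowest was Sal 72 h at 571 CPM, below S + D 72 h at 732 CPM without overlap. For TIPARP S + D 72 h at 85.7 CPM stood clear of Sal 72 h at 47.5 CPM, and each later neighbour overlapped the next. For AHR all neighbours overlapped, from 434 CPM with S + D at 24 h down to 257 CPM in the control at 24 h.

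Across the 32 libraries, which share 8 groups and the offset of the unnumbered libraries, CYP1A1 and CYP1B1 had a Pearson r of 0.73 in log2 CPM, AHR and CYP1B1 0.74, CYP1A1 and AHRR 0.78, TIPARP and ARNT 0.72, and TIPARP and CYP1B1 -0.17. These coefficients describe the groups rather than independent samples. Among 13726 genes with a mean of at least 1 CPM, the closest in pattern to CYP1A1 was SLC7A5, a large neutral amino acid transporter (r = 0.96), followed by UST and SMOC1. CYP1B1 was closest to NPAS2, a circadian factor of the same PAS family (r = 0.94), then LINC00689 and KCNIP3. TIPARP was closest to ATF3, a stress-induced transcription factor (r = 0.96 at n = 32), then SIAH1 and LPIN3. The closest to AHR was ZBTB38 (r = 0.95), followed by STX7 and GRK3, and to ARNT PDZD8 (0.97), followed by CLCN3 and STOX2. The closest to AHRR was RBM5 (0.88), followed by WARS2-AS1 and POLR2J4, and to CYP1A2 FAM13B (0.80), followed by ABCC5 and MCM3AP-AS1.

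**Figure D4:**
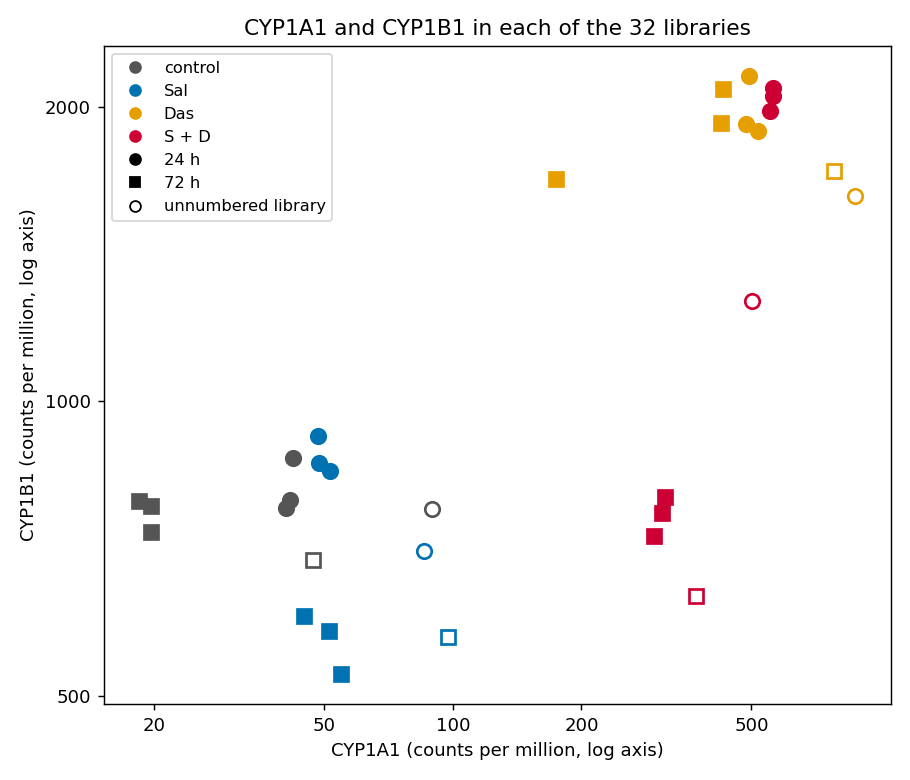
CYP1A1 (horizontal) against CYP1B1 (vertical), both in CPM on log axes, in each of the 32 libraries. Colours give the treatment, circles 24 h, squares 72 h and open symbols the unnumbered library. The 4 S + D libraries at 72 h have CYP1A1 of 296 to 372 CPM with CYP1B1 of 632 to 799 CPM, apart from the Das libraries, whose CYP1B1 is 1623 CPM or more.

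The cytosolic complex and coregulators of AHR were described by 12 genes. At 24 h 0 rose and 2 fell with Sal, 0 rose and 3 fell with Das, and 1 rose and 3 fell with S + D. At 72 h 2 rose and 4 fell with Sal, 0 rose and 3 fell with Das, and 1 rose and 4 fell with S + D. Over all genes 6.78%, 13.9% and 33.6% were called with Sal, Das and S + D respectively at 24 h and 53.2%, 19.9% and 54.9% at 72 h. Hence 6 and 5 of 12 genes with Sal and S + D at 72 h were near the share over all genes. HSP90AA1, the inducible HSP90 that holds AHR in the cytosol, went from 1660 CPM in the control at 24 h to 1090, 875 and 651 CPM in the Sal, Das and S + D cultures, a log2 change of -0.62 (adjusted p = 0.000166), -0.90 (1.68e-06) and -1.32 (1.10e-08). At 72 h it was 1.43, 0.96 and 1.33 log2 units below the control in the same order, having dropped from 1409 to 531, 730 and 567 CPM. HSP90AB1 and the p23 co-chaperone PTGES3 fell at 24 h with S + D by 0.50 and by 0.56, and CUL4B, part of an AHR-linked ubiquitin ligase, rose by 0.46 (adjusted p = 0.00858). HSP90AB1 and PTGES3 also fell at 24 h with Das, by 0.305 and by 0.50, and HSP90AB1 fell with Sal by 0.305. At 72 h the corepressor NRIP1 fell with S + D by 1.54 and with Sal by 0.68, the coactivator NCOA2 by 1.18 and 0.83, and DDB1 rose by 0.52 and 0.71. The list's median log2 difference with S + D was 0.04 at 24 h and -0.28 at 72 h, beside 0.04 and 0.01 over all genes.

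Of 14 other AHR target genes 11 were tested at 24 h and 12 at 72 h, and both directions were found among them. With Das 2 rose and 1 fell at 24 h and 4 rose and 3 fell at 72 h. With S + D 1 rose and 4 fell at 24 h and 4 rose and 5 fell at 72 h, beside 13.9% and 19.9% of all genes called with Das and 33.6% and 54.9% with S + D. SLC7A5 rose from 549 to 2265 CPM with Das at 24 h (2.06 on the log2 scale, SE 0.13, adjusted p = 3.62e-08) and to 2376 CPM with S + D. XDH, the xanthine oxidoreductase, fell from 4.47 to 0.412 CPM with Das at 24 h (-3.42, adjusted p = 8.09e-06) and from 5.03 to 0.333 CPM at 72 h (-3.90, adjusted p = 3.12e-06). SERPINB2, a serine protease inhibitor, fell with S + D by 2.09 at 24 h (from 1.20 to 0.276 CPM) and by 4.41 at 72 h (from 2.79 to 0.129 CPM). SCIN, an actin-severing protein, fell with S + D by 1.27 at 24 h (from 2.41 to 0.974 CPM) and by 3.20 at 72 h (from 1.72 to 0.183 CPM). Levels of both genes were low, so the sizes of these falls are imprecise. EREG, an EGFR ligand, rose at 72 h from 0.267 CPM to 2.504, 0.797 and 2.07 CPM in the Sal, Das and S + D cultures (3.18, 1.52 and 2.91 on the log2 scale). With Sal 0 of 11 of these genes passed by edgeR at 24 h (3 at an unadjusted p under 0.05), beside 6.78% of all genes. At 72 h 3 rose and 4 fell with Sal, beside 53.2% of all genes called.

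Enzymes that make or clear tryptophan-derived AHR ligands were described by 10 genes, of which 7 were tested. KMO, kynurenine monooxygenase, fell with Das at 24 h from 13.5 to 2.38 CPM (-2.48, adjusted p = 2.24e-07) and with S + D at 72 h from 10.2 to 1.35 CPM (-2.93, adjusted p = 2.49e-07). It also fell with S + D at 24 h by 2.04 and with Das at 72 h by 1.43. KYNU, kynureninase, fell with S + D by 0.89 at 24 h and by 2.92 at 72 h, and with Sal by 2.36 at 72 h. Das lowered KYNU as well, by 0.72 at 24 h and by 1.00 at 72 h. AADAT fell with Sal by 2.31 and with S + D by 2.44 at 72 h, while AFMID rose with S + D by 0.48 at 24 h and CCBL1 (KYAT1) rose with Sal and S + D at 72 h by 1.14 and 1.51. With Das 0 rose and 2 fell at 24 h and 1 rose and 2 fell at 72 h. With S + D 1 rose and 2 fell at 24 h and 2 rose and 3 fell at 72 h. With Sal 0 passed by edgeR at 24 h (1 at an unadjusted p under 0.05), and 2 rose and 2 fell at 72 h. The shares called over all genes at 24 h and 72 h were 13.9% and 19.9% with Das, 33.6% and 54.9% with S + D, and 6.78% and 53.2% with Sal. The 4 of 7 genes called with Sal at 72 h were near the share over all genes.

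Among 13 other bHLH-PAS factors, of which 11 were tested, NPAS2 moved the most at 24 h. NPAS2 went from 23.9 CPM in the control to 82.4 with Das and 71.9 with S + D at 24 h (1.80 and 1.62 on the log2 scale, adjusted p = 4.36e-06 and 3.12e-06), and was 0.02 below the control with Sal. ARNT2 fell with Sal at 24 h by 1.03 (adjusted p = 0.00322), ARNTL2 (BMAL2) fell with S + D by 0.56 and ARNTL (BMAL1) rose by 0.46. At 72 h SIM2 fell with all 3 treatments (by 1.96 with Sal, by 0.69 with Das and by 1.74 with S + D). SIM1 fell with S + D by 1.42 and with Sal by 0.61. HIF1A fell with Sal by 1.39 and with S + D by 1.41, and HIF3A rose with Sal by 1.31. In all, with S + D 2 rose and 1 fell at 24 h and 0 rose and 6 fell at 72 h. With Das 1 rose and 0 fell, then 1 rose and 1 fell. With Sal 0 rose and 1 fell, then 1 rose and 6 fell. For S + D, 3 and 6 of 11 genes were near the 33.6% and 54.9% of all genes called. The shares over all genes were 13.9% and 19.9% with Das and 6.78% and 53.2% with Sal.

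The other drug oxidation genes were mostly below the filter, and 5 of 13 were tested. Neither CYP3A4 nor its relatives CYP3A5, CYP3A7 and CYP3A43 passed the filter on low counts, nor did the nuclear receptors NR1I2 and NR1I3. POR, the reductase that feeds electrons to all microsomal P450 enzymes including the CYP1 forms, fell with S + D from 134 to 87.5 CPM at 24 h (-0.58, adjusted p = 0.000186) and at 72 h by 0.83 with Sal and by 0.79 with S + D. CYB5A fell with Sal at 72 h by 0.51 (adjusted p = 0.000815). With Das 0 of 5 passed by edgeR at 24 h (1 at an unadjusted p under 0.05) and 1 fell at 72 h. With Sal 0 passed at 24 h (1 at an unadjusted p under 0.05) and 3 fell at 72 h. With S + D 1 fell at 24 h and 2 at 72 h. Of all genes 6.78%, 13.9% and 33.6% were called with Sal, Das and S + D at 24 h, and 53.2%, 19.9% and 54.9% at 72 h.

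**Figure D5:**
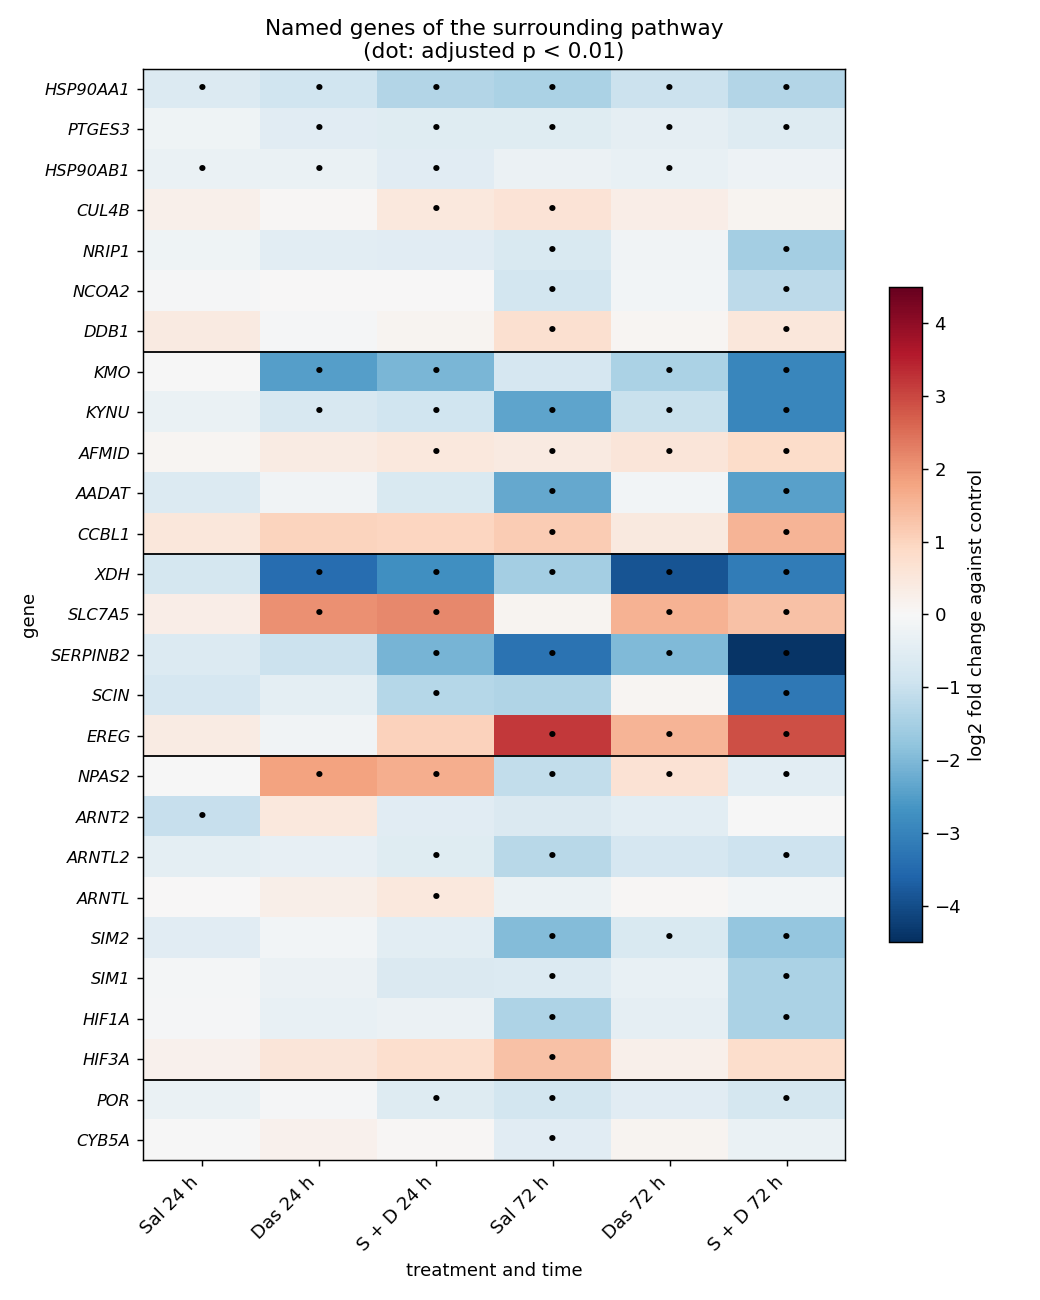
Log2 fold change against the control of the same time point (colour scale) for the named genes of the 5 lists, in the order AHR complex and coregulators, ligand enzymes, other AHR targets, other bHLH-PAS factors and other drug oxidation genes, separated by lines. Columns are treatments and times, and a dot marks adjusted p < 0.01. HSP90AA1 is lower in all 6 columns, and SLC7A5 and NPAS2 are higher with Das and S + D at 24 h but not with Sal.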

How the data were processed

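RNA was extracted from cultures of MDA-MB-468 cells (8 groups, 4 libraries each) and sequenced after Illumina TruSeq preparation. The authors deposited raw counts of reads per gene for all 32 libraries. The submitters' processing notes name bcl2fastq 2.19, STAR 2.5.2, Cufflinks 2.1.1 and DESeq2, with the GRCh37 build. The counting program, its annotation and its use of strand were not given in the sources used here. The deposited counts were used without change, and 46537 of 48804 gene identifiers were matched to a symbol.

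Counts were filtered with filterByExpr (minimum count 10), scaled by TMM and fitted with edgeR 4.0.16 (quasi-likelihood test, group means only, R 4.3.3) over the 16 libraries of a time point, or over all 32 for comparisons across time. P-values were adjusted by Benjamini-Hochberg over all genes tested, and a gene was called at adjusted p < 0.01. CPM used TMM scaling over all 32 libraries, and levels per kilobase divide it by the summed exon length of the GENCODE annotation on GRCh37. Standard errors were derived from the F statistic and are left out for log2 values within 0.02 of 0. Members below the filter were compared by exact permutation tests. The fit was tested on simulated data. The members and gene lists were chosen with earlier results of these data known. From each list, the up to 4 genes with the largest absolute log2 change among called genes of at least 1 CPM are named per time point. Genes closest in pattern are the 3 with the highest r. Alternatives were RLE scaling, no filter, DESeq2 1.42.0, a replicate block, a term for the unnumbered libraries, the numbered libraries only, all libraries or only the 2 groups in a fit, other thresholds, and each library left out. P-values set group differences against the spread between libraries of 1 line, which in the main fit includes the offset of the unnumbered libraries.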

Additional observations from a re-analysis of the deposited data

Results flagged for a closer look

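Within groups of 4 libraries, 12 values of the 7 genes stood apart by Dixon's test in 56 groups tested, where chance flags about 1 in 20 groups. The unnumbered library was the outlying one in 10 of them. For CYP1A1 it was the highest in the control (89.3 CPM against 40.7 to 42.3), with Sal (85.7 against 48.4 to 51.5) and with Das (873 against 486 to 518) at 24 h and in the control at 72 h (47.0 against 18.5 to 19.7), and the lowest with S + D at 24 h (502 against 554 to 563). In the same S + D group at 24 h it was the lowest for AHR (329 CPM) and CYP1B1 (1268 CPM) and the highest for TIPARP (61.8 CPM). It was also the lowest for ARNT in the control at 72 h (69.9 CPM) and the highest for AHRR with Sal at 72 h (1.80 CPM). The remaining 2 were numbered libraries, AHRR in S + D replicate 1 at 24 h (3.38 CPM, the lowest) and CYP1B1 in control replicate 1 at 24 h (874 CPM, the highest).

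The S + D response of CYP1B1 differed between the time points. By the interaction test it was lower at 72 h than at 24 h, with a log2 difference of -1.23 (SE 0.17, adjusted p = 6.87e-06). The level with S + D was above all 4 controls in 4 of 4 libraries at 24 h and in 1 of 4 at 72 h. It was below the mean of the controls in 0 of 4 libraries at 24 h and in 2 of 4 at 72 h.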

How the results depend on the processing

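The direction of every called member held under all alternatives, and no scaling moved the median of all genes by 0.1. RLE scaling changed no count. With the log2 limit of 1.5 added, the members called were 1 (Das, 24 h), 1 (S + D, 24 h), 1 (S + D against Sal, 24 h), 0 (Sal, 72 h), 1 (Das, 72 h), 2 (S + D, 72 h), 1 (S + D against Sal, 72 h), 0 (S + D against Das, 72 h), 0 (interaction, 72 h) and 0 (S + D response over time). At adjusted p < 0.05 they were 4 (Das, 24 h), 5 (S + D against Sal, 24 h) and 1 (S + D against Das, 24 h). At this limit they were also 5 (Das, 72 h), 5 (S + D, 72 h), 4 (S + D against Sal, 72 h), 3 (S + D against Das, 72 h), 2 (interaction, 72 h), 1 (control over time), 3 (Sal response) and 2 (S + D response). The interaction at 72 h had 2 calls with no filter and 2 with all 32 libraries in one model. When only the 2 groups were fitted, S + D against Sal at 24 h had 2 and Das at 72 h had 3. With no filter the counts also became 2 (Das, 24 h), 3 (S + D against Sal, 24 h), 3 (Sal, 72 h) and 3 (S + D, 72 h). With all 32 libraries they became 3 for S + D against Sal at 24 h and at 72 h and for S + D against Das at 72 h. DESeq2 gave 3 for Sal at 72 h and 3 for S + D against Sal at 72 h. The cause was not tested. Numbers 1 to 3 did not pair the libraries: among numbered libraries the median correlation of deviations was 0.00 for the same number at both times, against 0.00 and -0.01 for different numbers. With the replicate block, and likewise with a term for the unnumbered libraries, the counts were 5 (Das, 24 h), 6 (S + D against Sal, 24 h), 3 (S + D against Sal and S + D against Das, 72 h), 2 (S + D against Das, 24 h), 2 (interaction, 72 h), 2 (control over time), 4 (Sal response) and 2 (S + D response). For Das at 72 h the block gave 5 and the term 6, and for S + D at 72 h the block gave 4 and the term 5. With the numbered libraries only they were 2 (Sal, 24 h), 6 (Das, 24 h), 6 (S + D against Sal, 24 h), 2 (S + D against Das, 24 h), 1 (interaction, 24 h), 2 (interaction, 72 h), 2 (control over time), 4 (Sal response) and 2 (S + D response). With each library left out in turn, the counts ran from 3 to 4 (Das, 24 h), 5 to 6 (S + D, 24 h), 3 to 4 (S + D against Sal, 24 h), 2 to 4 (Sal, 72 h), 3 to 5 (Das, 72 h), 3 to 4 (S + D, 72 h), 1 to 2 (S + D against Sal, 72 h), 1 to 2 (interaction, 72 h), 0 to 1 (control over time), 0 to 1 (Sal response) and 1 to 2 (S + D response). Beyond the shares given above for the log2 limit of 1.5, shares of all genes called under the alternatives are not given. These counts therefore describe the calls only and do not compare the members with all genes. Of single-gene results, 68 passed the threshold newly and 33 no longer passed under an alternative, of 1899 in all. Depth limits CYP1A2 (0 to 46 counts) and AHRR the most.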
